A study of Mus musculus with 4 samples.

Results

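In gastrocnemius muscle of control mice, 298 of the 1621 sites called for the chromatin protein PHF2 were both wide, at 800 bp or more, and within 1 kb of an end of a protein-coding gene. This was 18.4% of the list (Wilson 95% interval 16.6 to 20.3%). The peaks were chosen by their deposited width and by their distance to the ends of 21887 RefSeq genes, and 327 genes had such a peak at an end. Of the other sites, 853 lay at a gene end and were narrower, 106 were wide and lay elsewhere, and 364 were neither.

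The sites came from CUT&RUN, which releases the DNA next to a protein with a nuclease tethered to an antibody against it. Gastrocnemius, a calf muscle, was taken from 4-week-old male C57BL/6 mice. Control animals were Phf2 flox/flox;Acta1 Cre- (Ctrl), and knockout animals were Phf2 flox/flox;Acta1 Cre+ (KO). All mice thus carried floxed Phf2 on both alleles, and the groups differed by the Cre transgene. Acta1 encodes skeletal actin, so its promoter drives Cre in muscle fibres, and the other cells of the muscle keep Phf2. One library per genotype was made with a PHF2 antibody and 1 with IgG, an antibody without a specific target. With 4 libraries and 1 per group there was no replicate check and no test between conditions. The KO list held 161 PHF2 peaks. In a piece of bulk muscle, residual signal from cells that keep Phf2, residual protein in fibres and binding that does not come from PHF2 cannot be told apart.

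PHF2 has a PHD finger, which reads histone H3 methylated at lysine 4, a mark of active promoters. It also has a JmjC domain of the demethylase family and has been linked to removal of the repressive methyl mark on lysine 9 of the same histone. The same lysine 4 mark spreads over long stretches at genes for cell identity and signalling in many tissues. Peak width describes how far the antibody signal stayed above the caller's background around a summit, the position of the highest signal.

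Most of the summits lay inside the gene, as described below, so the bases under a summit could be shown for only a few of the peaks. The 6 sequences below are the 250 bases before the RefSeq start of the widest members whose summit fell in the listed start window, kept where those bases lay in no annotated protein-coding gene, the member's own longer gene models included. They are written 5′ to 3′ on the gene's strand from GRCm38.p6, the assembly behind mm10, with matches to the searched motifs in capitals.
Cited2: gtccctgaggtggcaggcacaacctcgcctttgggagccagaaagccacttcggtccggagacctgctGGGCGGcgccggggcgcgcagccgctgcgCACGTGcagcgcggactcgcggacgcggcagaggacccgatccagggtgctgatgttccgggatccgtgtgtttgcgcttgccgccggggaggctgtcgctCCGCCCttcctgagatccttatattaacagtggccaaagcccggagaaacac
Rock2: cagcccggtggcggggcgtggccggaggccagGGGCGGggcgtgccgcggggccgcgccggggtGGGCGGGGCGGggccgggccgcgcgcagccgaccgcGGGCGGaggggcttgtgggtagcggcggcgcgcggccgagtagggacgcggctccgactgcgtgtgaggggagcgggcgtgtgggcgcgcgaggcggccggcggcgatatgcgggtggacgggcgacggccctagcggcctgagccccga
Sos2: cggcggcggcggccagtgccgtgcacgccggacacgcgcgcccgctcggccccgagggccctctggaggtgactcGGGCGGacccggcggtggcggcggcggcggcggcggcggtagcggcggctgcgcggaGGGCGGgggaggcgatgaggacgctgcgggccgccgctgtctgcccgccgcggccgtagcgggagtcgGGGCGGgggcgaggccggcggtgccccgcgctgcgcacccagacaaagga
Etv6: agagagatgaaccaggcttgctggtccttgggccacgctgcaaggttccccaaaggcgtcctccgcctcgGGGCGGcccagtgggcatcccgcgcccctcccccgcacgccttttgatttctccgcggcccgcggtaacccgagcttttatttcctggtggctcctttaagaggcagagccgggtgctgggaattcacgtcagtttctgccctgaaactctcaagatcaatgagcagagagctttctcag
Thap2: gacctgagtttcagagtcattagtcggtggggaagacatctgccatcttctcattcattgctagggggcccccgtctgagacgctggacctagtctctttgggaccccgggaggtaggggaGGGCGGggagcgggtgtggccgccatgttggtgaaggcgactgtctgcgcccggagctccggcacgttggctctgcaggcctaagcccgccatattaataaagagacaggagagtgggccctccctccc
Trim63: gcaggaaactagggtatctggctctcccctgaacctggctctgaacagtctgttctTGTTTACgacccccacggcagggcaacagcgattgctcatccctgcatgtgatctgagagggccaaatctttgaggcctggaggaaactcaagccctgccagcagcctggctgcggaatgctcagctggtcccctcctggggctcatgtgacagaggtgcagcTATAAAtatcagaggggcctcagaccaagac
Cited2 encodes a coactivator-binding protein that limits hypoxia signalling, and its window is chr10:17722978-17723227 on the plus strand. Its peak was 2165 bp wide with the summit 184 bp before the start, and the window holds 26 CpG pairs, a GC box on each strand and an E-box. Rock2, a kinase acting downstream of RhoA on the actin cytoskeleton, has the window chr12:16894728-16894977 on the plus strand, with 46 CpG pairs and 4 GC boxes. The summit of its 1646 bp peak was 35 bp before the start. Sos2, an exchange factor that activates Ras, has the window chr12:69681853-69682102 on the minus strand, with 47 CpG pairs and 3 GC boxes. Etv6, an ETS-family repressor, has chr6:134035450-134035699 on the plus strand, with 16 CpG pairs and 1 GC box. Thap2, at chr10:115384436-115384685 on the minus strand, has 13 CpG pairs and 1 GC box. Trim63 encodes MuRF1, a muscle ubiquitin ligase of the atrophy programme, and its window is chr4:134314870-134315119 on the plus strand. That window differs from the others in holding 4 CpG pairs, a TATA box and a FoxO element read on the opposite strand. The summit of the 987 bp Trim63 peak was 87 bp before the start.

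The widths of the 298 peaks had a median of 1103 bp and ran from 800 to 4393 bp, with quartiles of 920 and 1523 bp. The 853 narrow gene-end peaks had a median of 430 bp. Width chose the members, so these values are a description. Together the wide gene-end peaks covered 391.167 kb, which was 36.0% of all the sequence in the Ctrl list, and the narrow ones covered 391.391 kb. The peaks just above the limit lay at Myf6 (803 bp), which encodes a myogenic transcription factor, at Pafah1b1 (800 bp), a dynein regulator, and at Klf4 (800 bp), a Krüppel-like factor. The gene-end peaks just below it lay at Kif1b (795 bp), Ppp2r5e (794 bp) and Elf2 (792 bp). Their summits held 14 to 25 tags, with 14, 15 and 25 above the limit and 16, 18 and 19 below it.

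Width went with height. The number of sequenced tags piled up at each summit was recovered from the deposited values, as the processing text describes. It had a median of 20 tags at wide gene-end peaks, with quartiles of 17 and 24 and a range of 10 to 44. At narrow gene-end peaks the median was 14 tags, with quartiles of 12 and 17. The authors' fold enrichment over background had medians of 7.46 and 6.07. Wide peaks elsewhere also had a median of 20 tags and a fold of 7.71. Among the members, median tags were 18 for widths of 800 to below 1000 bp, 20 for 1000 to below 1500 bp, 23 for 1500 to below 2000 bp and 27 for 2000 bp or more. Each summit therefore rests on few tags, and a count of 20 has an exact Poisson 95% interval of 12.2 to 30.9, for counting error only.

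The widest member lay at Nfib, a nuclear factor I gene, and spanned 4393 bp at chr4:82503251-82507643. Its summit held 32 tags at a fold of 13.8. Sox4, a transcription factor of progenitor cells, had 3366 bp at chr13:28950422-28953787 and 36 tags. Arid1b, a subunit of the BAF chromatin remodeller, had 3331 bp at chr17:4993942-4997272 and 40 tags. Adgrl2, an adhesion receptor, had 3308 bp and 35 tags. Zmiz1, a coregulator of the PIAS family, was next with 3027 bp and 39 tags.

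The remaining 10 of the 15 widest members ranged from 2541 to 3016 bp. They lay at Dusp6 (3016 bp), a phosphatase that inactivates ERK, at Ppargc1b (2982 bp), a coactivator of mitochondrial genes, and at the zinc finger genes Zfp608 (2961 bp) and Zhx2 (2931 bp). Trib2 (2919 bp) and Trib1 (2541 bp) encode pseudokinases that bind Akt or COP1. Foxo1 (2866 bp) encodes a transcription factor of fasting and atrophy, and Myc (2791 bp) one of cell growth. Klf9 (2761 bp) is induced by glucocorticoid and thyroid hormones, and Ppp3ca (2713 bp) encodes the catalytic subunit of calcineurin. Their summits held between 20 tags, at Dusp6, and 39 tags, at Ppp3ca.

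**Figure D1:**
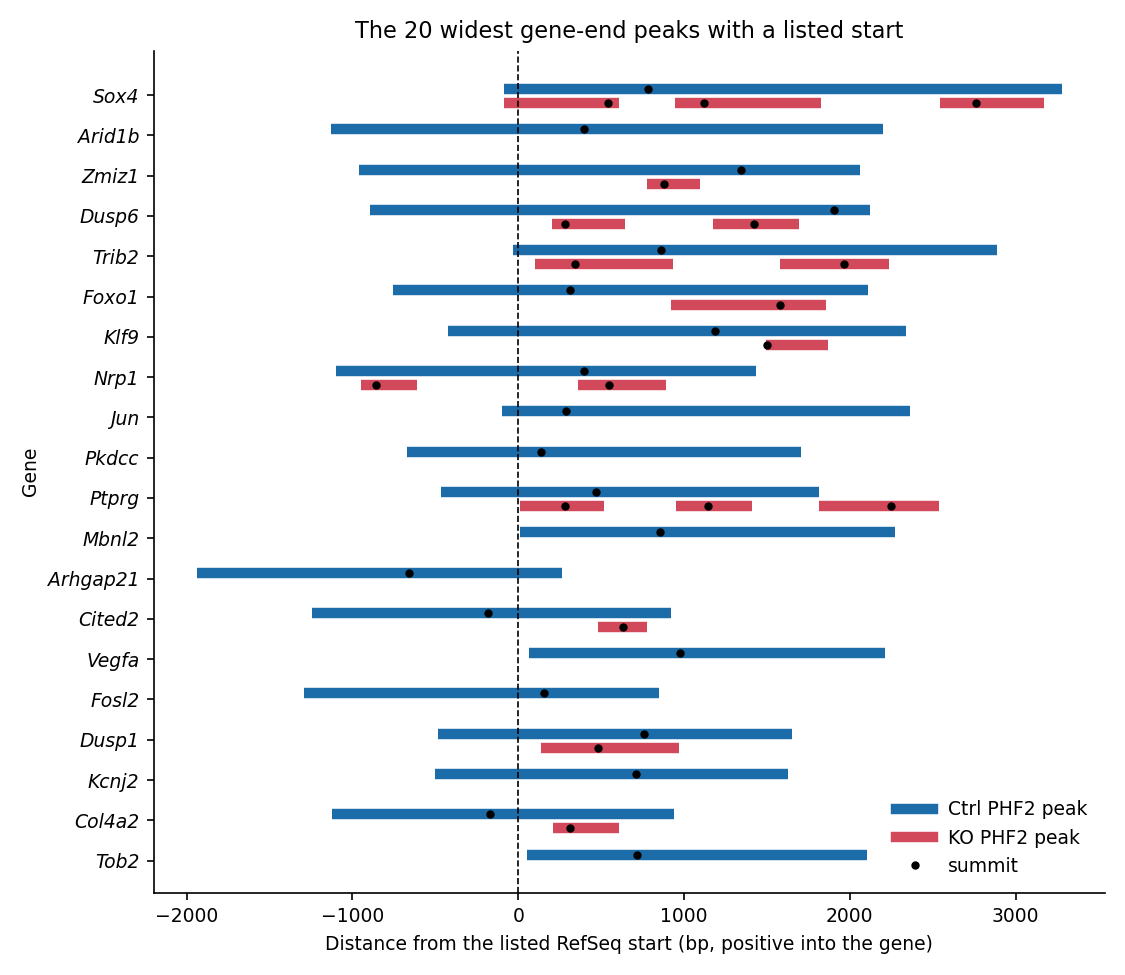
Extent of the 20 widest members with a listed start, as distance in bp from that start (positive values lie inside the gene); blue bars are Ctrl PHF2 peaks, red bars overlapping KO PHF2 peaks and black dots summits. Most bars reach further into the gene than before its start, the Sox4 bar is 3366 bp long, and the KO bars are shorter and lie within or beside the Ctrl bars.

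Height and width did not rank the same peaks first. The highest fold enrichment was at Plpp3, which encodes a phosphatase of lysophosphatidic acid and related lipids. It was 18.3 with 44 tags in a peak of 1403 bp at chr4:105157324-105158726. Jun, an AP-1 subunit, followed with a fold of 16.1 and 37 tags over 2466 bp. Nudt4, a diphosphoinositol polyphosphate hydrolase, and Ldlrad4, an inhibitor of TGF-β signalling, each had a fold of 14.6 and 29 tags. Calm2, which encodes calmodulin, Cpeb4, which controls poly(A) tails, and Ppm1l, a phosphatase of stress kinases, each had 27 tags and a fold of 13.6. Cpeb4 reached this in 888 bp, close to the lower limit of width. Zfand5, a zinc finger gene of muscle atrophy that shares its peak with the gene model LOC115489044, had 29 tags and a fold of 13.8.

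Nearly all members lay at gene starts. The strand was known for 231 of the 298 peaks, and 229 of these (99.1%, 96.9 to 99.8%) lay within 1 kb of a start, 11 of them within 1 kb of an end as well. The exceptions were the peaks at Jund and Ier5l, which lay at a gene's 3′ end alone. Narrow gene-end peaks were at a start in 99.3% of the 686 with a known strand, so position at a start was common to both widths. A listed start lay within 1 kb of 220 wide and 666 narrow peaks. Wide peaks covered it in 143 cases (65.0%, 58.5 to 71.0%) and narrow ones in 250 (37.5%, 33.9 to 41.3%). A wide peak covers more bases, and the part of its width in this difference was not tested.

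Wide peaks extended into the gene. Of the 143 that covered a start, 121 had their longer part downstream of it (84.6%, 77.8 to 89.6%), against 158 of 250 narrow peaks (63.2%, 57.1 to 68.9%). The median length was 849 bp downstream and 314 bp upstream, while narrow peaks had 273.5 and 164.5 bp. Summits were shifted the same way. They were downstream of the start in 187 of 220 wide peaks (85.0%, 79.7 to 89.1%) and in 503 of 666 narrow ones (75.5%, 72.1 to 78.6%). The median summit lay 315 bp inside the gene in wide peaks, with quartiles of 152.5 and 633.25 bp, and 212 bp inside in narrow peaks.

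A summit within 250 bp of the start was less frequent in wide peaks, with 70 of 220 (31.8%, 26.0 to 38.2%), than in narrow ones, with 310 of 666 (46.5%, 42.8 to 50.3%). Summits more than 1 kb from the start made up 7.73% of wide and 2.10% of narrow peaks. The farthest was at Dusp6, where the summit lay 1903 bp inside the gene. At Irs2, an insulin receptor substrate, it lay 1760 bp inside, and at Zmiz1 1341 bp inside. At Klf9 it lay 1187 bp inside. The summit farthest before a start, by 1270 bp, was at Bcl6, a transcriptional repressor. Bcl6 has 2 wide peaks, and the summit of the other lay 1171 bp inside the gene. Jag1, a Notch ligand, likewise had 2 wide peaks, with summits 1307 bp inside and 404 bp before the listed start. Kctd15 and Gm35364 were the other genes with more than 1 wide peak.

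**Figure D2:**
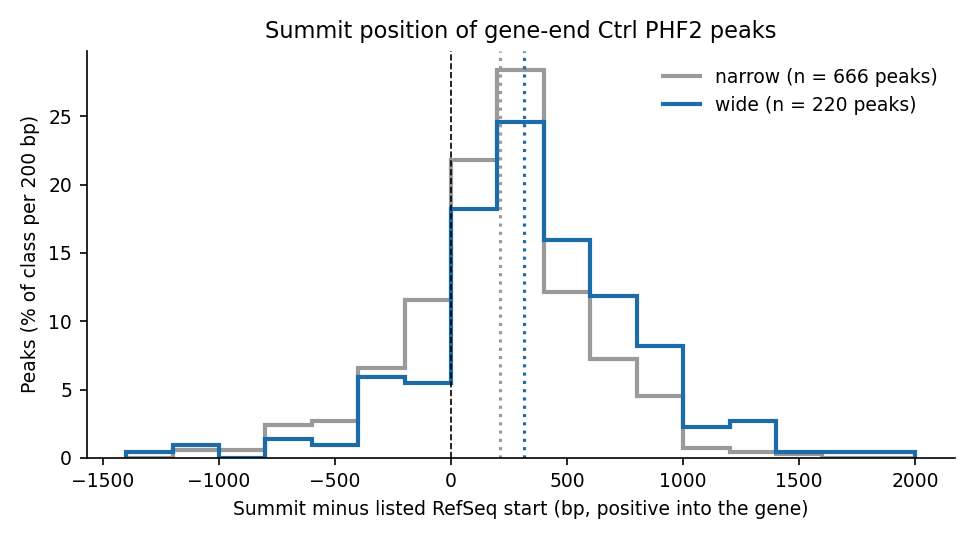
Position of the Ctrl PHF2 summit in wide and narrow gene-end peaks, in bp from the nearest listed RefSeq start (positive values lie inside the gene). Dotted lines mark the medians, 315 bp in wide and 212 bp in narrow peaks, and the summits of wide peaks reach further into the gene.

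Within the peak, the summit was often away from the middle. On a scale from 0 at the centre to 1 at the edge, its median distance was 0.424 in wide gene-end peaks, with quartiles of 0.195 and 0.614. It was 0.291 in narrow gene-end peaks and 0.475 in the wide peaks elsewhere. The summit fell in the central 50% of the width in 178 of the 298 members (59.7%, 54.1 to 65.1%) and in 636 of the 853 narrow peaks (74.6%, 71.5 to 77.4%). In base pairs, the median distance from summit to the nearer edge was 317.5 in wide and 146 in narrow peaks. The widest members were the most centred, since the median was 0.246 for 2000 bp or more and 0.458 for 800 to below 1000 bp.

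Single peaks spanned the whole scale. The peak at Tmem11, a mitochondrial membrane protein, had its summit 2.1% of the way along, and that between Thap2 and Zfc3h1 at 3.3%. Klf13 (3.6%) and Efnb1 (4.1%), an ephrin, were also near the edge of lower coordinate, and Wnk1 (95.4%), a kinase of ion transport, was near the other. The most central were Cavin1 (49.9%), a coat protein of caveolae, Slc12a2 (49.8%), an ion cotransporter, and Thrb (49.8%), a thyroid hormone receptor. Calm2 (50.3%) and Itga1 (50.5%) followed.

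Of the 298 members, 62 met a peak of the KO PHF2 list in 1 bp or more (20.8%, 16.6 to 25.8%). Over all Ctrl PHF2 peaks this share was 7.03%, and over all gene-end peaks 7.47%. Among narrow gene-end peaks it was 24 of 853 (2.81%, 1.90 to 4.15%), a difference of 17.99 percentage points (Newcombe 95% interval 13.6 to 23.0). Wide peaks elsewhere overlapped in 22 of 106 (20.8%, 14.1 to 29.4%), a difference from the members of 0.0507 points (-9.60 to 8.33). Narrow peaks elsewhere overlapped in 6 of 364 (1.65%, 0.758 to 3.55%). Seen from the KO list, 71 of the 161 KO peaks (44.1%, 36.7 to 51.8%) lay on a wide gene-end Ctrl peak and 23 (14.3%) on a narrow one. These intervals cover counting error only, since peaks of a library are not replicates.

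A wide peak can meet a KO peak by its length alone, so the same comparison was made with a window of 100 bp around each Ctrl summit. A KO peak lay in it for 36 members (12.1%, 8.86 to 16.3%) and 22 narrow gene-end peaks (2.58%, 1.71 to 3.87%), against 4.81% of all Ctrl peaks. The difference was 9.50 points (6.03 to 13.8). Height went with any overlap among wide peaks, at 5.56%, 7.41%, 22.0% and 27.1%. These are the classes of 8 to 13, 14 to 16, 17 to 20 and 21 or more tags. Among narrow peaks the same classes had 1.57%, 2.36%, 5.78% and 3.13%, so the tallest class was not the highest. At summits of 21 tags or more, 25 of 144 wide peaks (17.4%) and 2 of 64 narrow ones (3.13%) had a KO peak in the window, 14.2 points apart (4.98 to 21.6). At 17 to 20 tags the difference was 4.55 points (-1.90 to 13.2), and at 14 to 16 tags it was 1.35 points (-2.27 to 10.3). At 8 to 13 tags it was 4.30 points (-0.656 to 24.5). With this window a difference beyond counting error was seen at the highest summits. That class has no upper limit, and tags ran to 44 in wide and 30 in narrow gene-end peaks. Height was therefore not matched within it. By any overlap such a difference was also seen at 17 to 20 tags, 16.2 points (7.33 to 26.6). There 18 of 82 wide (22.0%) and 10 of 173 narrow peaks (5.78%) met a KO peak. A KO summit lay inside the Ctrl peak at 4 of 54 wide and 5 of 297 narrow peaks of 14 to 16 tags. The difference was 5.72 points (0.726 to 15.9). At 8 to 13 tags it was 5.24 points (0.452 to 25.4), from 1 of 18 wide and 1 of 319 narrow peaks. These differences rest on few peaks, and a longer peak has more room for a KO summit.

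The share with a KO peak was higher at larger widths. It was 10 of 109 for 800 to below 1000 bp (9.17%, 5.06 to 16.1%), 23 of 110 for 1000 to below 1500 bp (20.9%), 12 of 47 for 1500 to below 2000 bp (25.5%) and 17 of 32 for 2000 bp or more (53.1%, 36.4 to 69.1%). With the fixed window the shares were 5.50%, 13.6%, 17.02% and 21.9% (11.0 to 38.8% in the last class). The intervals of all 4 classes overlapped there, which does not show that the shares were equal. A rise with width at the summit was not tested.

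**Figure D3:**
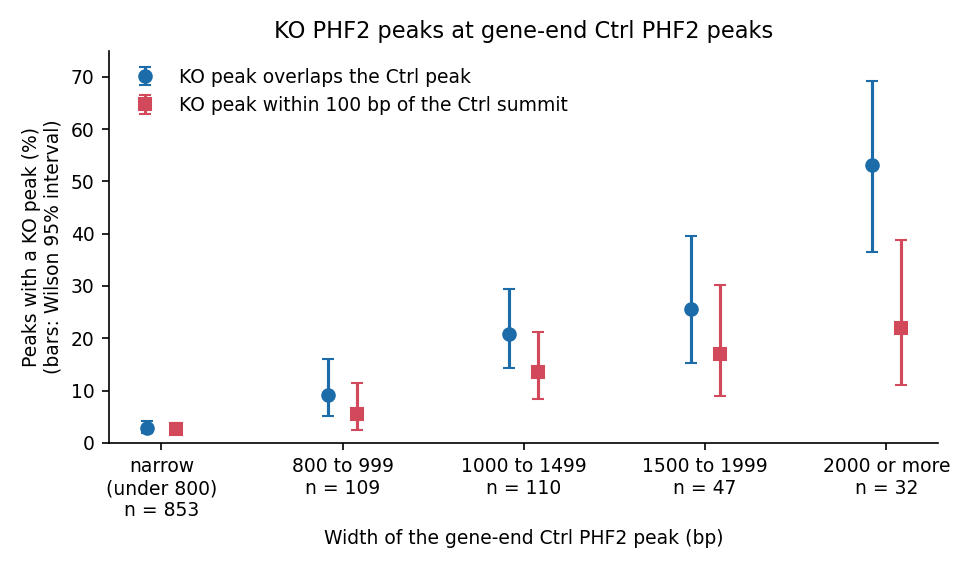
Share of wide gene-end Ctrl peaks with a KO PHF2 peak, in percent, by class of Ctrl peak width in bp, for any overlap and for a KO peak within 100 bp of the Ctrl summit; bars are Wilson 95% intervals. The share by any overlap goes from 9.17% to 53.1%, and that at the summit from 5.50% to 21.9%.

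Where several KO peaks met a Ctrl peak, the KO summit with the most tags was taken. At the 62 shared members, the KO summit held fewer tags than the Ctrl summit in 56 (90.3%, 80.5 to 95.5%). Over all 114 shared Ctrl peaks the share was 82.5%. Width in the Ctrl library chose the members, and width went with tags in that library, so lower KO counts are in part fixed by the choice and are given as a description. The median was 23 tags in Ctrl and 16 in KO, and the ratio of KO to Ctrl had a median of 0.700, with quartiles of 0.590 and 0.833. For the 24 shared narrow peaks the median ratio was 0.845. The weakest KO peak held 10 tags, so pairs with a lower KO count could not appear. Tag counts are not scaled for library depth. The caller's background and scaling factors gave a KO PHF2 library 1.01 times the size of the Ctrl one. Single pairs were imprecise. The Poisson intervals of Ctrl and KO were apart at 1 member, Klf9, with 38 tags in Ctrl (26.9 to 52.2) and 12 in KO (6.20 to 20.96). Gab1, an adaptor of receptor kinases, followed in ratio at 28 and 11 tags, then Cux1, a homeobox factor, at 25 and 10, and Rock2 at 32 and 13. Their intervals overlapped.

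The KO peak of highest fold enrichment lay at Plpp3, which also led the Ctrl list, with 26 tags in KO and 44 in Ctrl. At 2289 bp it was wider than the Ctrl peak. At Ppp3ca 26 KO tags faced 39 in Ctrl, and the summits were 10 bp apart. Foxo1 had 24 KO tags and 31 in Ctrl, with summits 1268 bp apart. Adgrl2 had 24 and 35 tags. Klf6, an injury-induced Krüppel-like factor, had 25 tags in KO and 26 in Ctrl, and Spry1, an inhibitor of receptor tyrosine kinase signalling, had 17 and 22. The Poisson intervals of Ctrl and KO overlapped at each of these genes.

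More tags in KO than in Ctrl were found at 5 members. They were the shared start of Thap2 and Zfc3h1 (17 in KO and 13 in Ctrl), Marcks (23 and 18), a substrate of protein kinase C, and Meox2 (24 and 20), a homeobox factor of vessels and somites. Xbp1 (17 and 15), a factor of the unfolded protein response, and Ptprg (27 and 24), a receptor tyrosine phosphatase, completed the set. Smad7, an inhibitor of TGF-β signalling, had 22 in both libraries. The intervals of each pair overlapped.

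**Figure D4:**
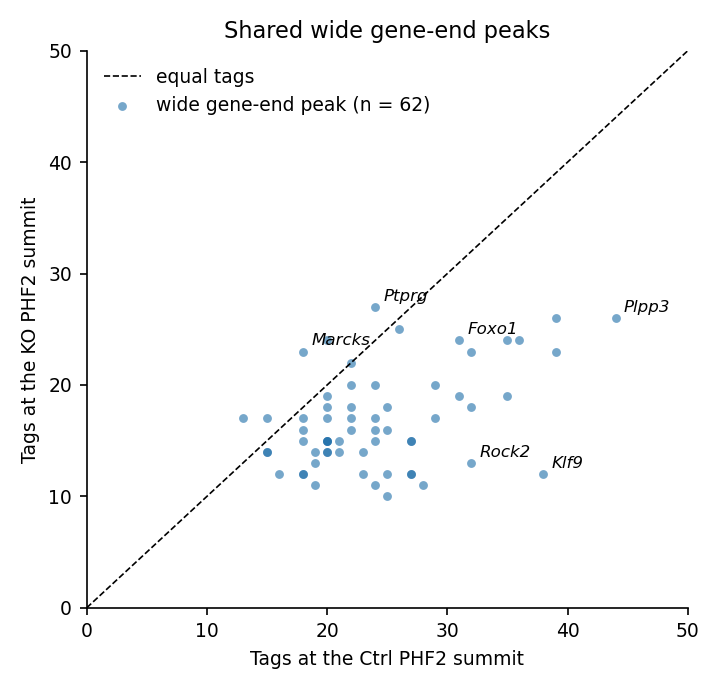
Tags at the Ctrl PHF2 summit (horizontal) and at the overlapping KO PHF2 summit with the most tags (vertical) for the 62 shared members. Darker points are several peaks with the same counts, and the dashed line marks equal tags. Of the points, 56 lie below the line, Klf9 and Rock2 lie farthest below it in ratio among the labelled genes, and Marcks and Ptprg lie above it.

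KO peaks at the members were short. A Ctrl width of 800 bp chose the members and no width chose the KO peaks, so this is a description with no weight as a comparison. Their median width was 546.5 bp beside 1404.5 bp for the Ctrl peaks they met, and they were narrower in 60 of 62 pairs, Plpp3 and Spry1 being the exceptions. The KO peaks covered a median of 34.6% of the Ctrl width and lay wholly inside it in 42 pairs (67.7%). They covered the Ctrl summit in 31 pairs. The summits were a median of 356.5 bp apart and within 100 bp in 8 pairs, Zfp608 (3 bp), Wasf2 (9 bp) and Ppp3ca (10 bp) being the closest. Several KO peaks fell under a single Ctrl peak at 7 members, with 3 at Sox4 and 3 at Ptprg. There the KO width and summit distance are those of the peak with the most tags. The covered share and the counts inside the Ctrl peak or over its summit use all the KO peaks. Over the whole KO list the median width was 451 bp. Of its 161 peaks 20 reached 800 bp, and 18 of those 20 met a wide gene-end Ctrl peak.

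No KO peak met 236 of the 298 members (79.2%), against 93.0% of all Ctrl PHF2 peaks. Of the 144 members with 21 tags or more, 105 (72.9%) had none. They were led by Arid1b, with 40 tags, and Jun, with 37, and included Tcf7l2, with 32, Myc, with 31, and Maf, with 29. Tcf7l2 encodes a Wnt effector and Maf a leucine zipper factor. Members without a KO peak had a median of 20 tags and 1068.5 bp, and those with one 23 tags and 1404.5 bp. A member without a KO peak is one below the caller's threshold in that library, which does not show absence of signal.

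Neither IgG list overlapped any member. A count of 0 of 298 allows a share of up to 1.01% in each, for counting error only. The same held for all 1621 Ctrl PHF2 peaks, which allows up to 0.185%. The lengths of the IgG lists are not given here. The caller's control library is not stated, so IgG signal may already have entered the PHF2 calls. The zeros therefore do not check the members against IgG background.

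The gene classes are given next as counts of genes with a wide peak, beside the 1.49% of all protein-coding genes that had one. The number of genes at narrow peaks alone is given too, since 26.7% of all genes with a gene-end peak had a wide one. Width and position chose these genes, so the counts describe them and support nothing further. KO overlap within a list is to be read beside the 20.8% of all wide gene-end peaks, and a count of 0 among a few genes does not show a departure from it. Of the 327 genes, 149 (45.6%) were in at least 1 of 42 lists, and 32 lists had a member at a wide peak.

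Genes of FoxO signalling and muscle atrophy had 10 of 31 members at wide peaks and 6 at narrow peaks alone. Foxo1 (2866 bp) and Foxo3 (1598 bp, 24 tags in Ctrl and 15 in KO) encode the FoxO factors themselves. Zfand5 had 1553 bp, and the stress genes Gadd45a, Ddit4 and Gadd45g had 1145, 1113 and 1015 bp. Ddit4, an inhibitor of mTOR complex 1, had 20 tags in Ctrl and 15 in KO. Of the ubiquitin ligases that carry out fibre atrophy, Trim63 had a wide peak of 14 tags, and Fbxo32 had a narrow one. Insulin, IGF and mTOR genes had 7 of 38 at wide peaks and 3 at narrow ones alone. The former included Trib2, Trib1, Gsk3b (2015 bp), Irs2 (1922 bp), Pik3r1 (1111 bp) and Irs1. Among these Trib1, Trib2 and Pik3r1 had KO peaks. Pik3r1 encodes the regulatory subunit of PI3-kinase and had 25 tags in Ctrl and 16 in KO.

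Immediate early genes, switched on fast after a stimulus, had 9 of 31 members at wide peaks and 3 at narrow ones alone. Myc (2791 bp), Jun (2466 bp), Fosl2 (2142 bp) and Cebpd (1871 bp) had no KO peak. Btg1 (1606 bp), an antiproliferative gene, had 29 tags in Ctrl and 20 in KO, and Ier5 had 25 and 12. Fos itself had a narrow peak. Feedback inhibitors of MAP kinase signalling had 4 of 35, and 4 at narrow peaks alone. The wide ones were Dusp6, Dusp1 (2139 bp), Spry1 (993 bp) and Spry2 (929 bp). All 4 overlapped a KO peak, with 14, 20, 17 and 15 KO tags against 20, 24, 22 and 27 in Ctrl. Of the MAP kinase cascade, 4 of 60 had wide peaks, Sos2, Mapk14, Mapkapk2 and Map3k5, and 7 had narrow ones alone. None of the 4 overlapped a KO peak, and whether the lists differ in this was not tested.

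Myogenic regulators had 8 of 30 at wide peaks and 2 at narrow ones alone, and none of the 8 overlapped a KO peak. The widest was at Mbnl2 (2265 bp, 21 tags), a splicing regulator of muscle. Tead1 (1970 bp, 24 tags) encodes the DNA-binding partner of YAP, and Six4 (1909 bp, 22 tags) a homeobox factor of muscle. Rbm24 (1329 bp, 23 tags) encodes a muscle splicing factor. Myod1 (834 bp, 13 tags), the myogenic master factor, was low in both measures. The Notch pathway and satellite cell list had 6 of 27, and 3 at narrow peaks alone, the wide ones including Jag1, Dll1 (1237 bp), Maml2 (1331 bp) and Hes1 (949 bp), which cover ligand, coactivator and target. In the list of sarcomere genes 2 of 60 had wide peaks, Des (1403 bp, 21 tags), the muscle intermediate filament, and Tmod1 (874 bp), which caps thin filaments. Narrow peaks alone were found at 11 others.

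Krüppel-like and Sp factors had 4 at narrow peaks alone and 5 of 26 at wide ones, Klf9 (2761 bp), Klf6 (1950 bp), Sp3 (915 bp), Klf13 (848 bp) and Klf4 (800 bp). Sox, nuclear factor I, Zeb, Tcf and homeobox factors had 12 of 111 at wide and 6 at narrow peaks alone, led by Nfib, Sox4 and Six4. Nuclear receptors and coregulators had 7 of 61 at wide and 5 at narrow peaks alone, with no KO peak at the 7. They were Ppargc1b, the mineralocorticoid receptor gene Nr3c2 (2036 bp, 25 tags), the corepressor gene Nrip1 (1802 bp, 25 tags), Ncoa2 (1605 bp), Thrb (1313 bp), Med13l (1264 bp) and the clock repressor gene Nr1d1. TGF-β, BMP and myostatin genes had 5 of 41 at wide and 8 at narrow peaks alone. The receptors Acvr1 (1569 bp) and Acvr2a (1334 bp) were among them, the latter with 23 tags in Ctrl and 12 in KO, as were the inhibitors Ldlrad4 (1337 bp), Smad7 (1032 bp) and Smurf2 (875 bp).

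Calmodulin and calcium genes had 5 at narrow peaks alone and 4 of 43 at wide ones, which were Ppp3ca, Calm2 (27 tags in Ctrl and 12 in KO), Stim2 and Prkca. Glycolysis and glycogen genes had 4 of 45, none with a KO peak, and 6 at narrow peaks alone. Pgam2 (1528 bp, 22 tags) and Pygm (1336 bp, 16 tags) encode the muscle forms of phosphoglycerate mutase and glycogen phosphorylase, and Eno1 (1090 bp) and Ugp2 (950 bp) an enolase and a glycogen precursor enzyme. Histone methylation enzymes and readers, the class of PHF2 itself, had 13 at narrow peaks alone and 7 of 102 at wide ones (35.0% of those with a peak), led by Kmt2c (1835 bp, 22 tags), a lysine 4 methyltransferase. Ing1 (1820 bp) and Setd1b (1303 bp) followed, and Jmjd1c (1166 bp, 15 tags) encodes another JmjC protein. Among acetylation and remodelling genes 4 of 93 had wide peaks and 13 narrow ones alone, so 23.5% of those with a peak had a wide one. The wide ones were at Chd7 (1720 bp) and the BAF subunit genes Arid1b, Arid1a (1517 bp) and Arid2 (1172 bp).

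In some other lists, most genes with a peak had narrow ones alone. Splicing and RNA helicase genes had 4 wide of 170 (2.35%), and 28 at narrow peaks alone. Genes for ubiquitin E2 and E3 enzymes, F-box proteins, cullins and Usp proteases had 9 of 404 (2.23%), and 39 at narrow peaks alone. Neither share was below the 1.49% of all protein-coding genes. Subunits of oxidative phosphorylation had 0 of 89, which allows up to 3.37%, with 7 at narrow peaks. Cell cycle genes had 0 of 44 (up to 6.82%) with 8 at narrow peaks. Ribosomal proteins had 0 of 85 (up to 3.53%) with 4, and the proteasome 0 of 48 (up to 6.25%) with 2. These limits all lie above 1.49%, so the zeros do not show a lower share. Olfactory and vomeronasal receptors, silent in muscle, had 0 of 1463 at peaks of either width. Defining markers of fibres had a wide peak at 1 of 7, Des, and those of other cell types at 0 of 17. In the longer lists for other cells, 1 of 18 fibro-adipogenic and tenocyte genes had one, Tcf7l2 (1811 bp, 32 tags, no KO peak), and the endothelial list had 0 of 20, the immune list 0 of 18 and the list for pericytes, smooth muscle and Schwann cells 0 of 13. A gene-end peak of any width lay at 2 of those 17, the endothelial genes Cdh5 and Flt1. Peak lists give no expression, so the cell source of the signal was not tested.

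**Figure D5:**
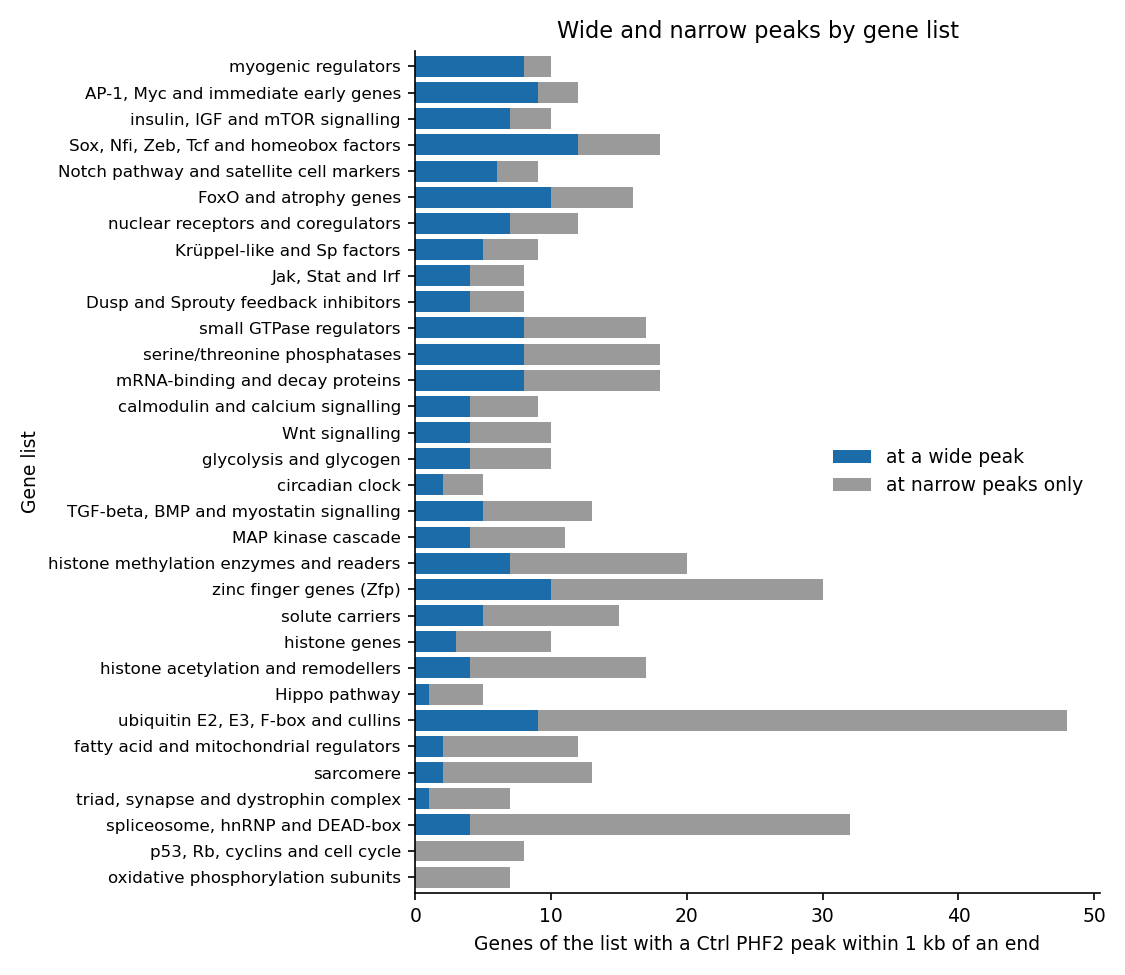
Number of genes in each list with a Ctrl PHF2 peak within 1 kb of an end, split into wide (blue) and narrow peaks only (grey). Lists with fewer than 5 such genes are not drawn. Myogenic regulators have 8 wide and 2 narrow, while splicing genes have 4 wide and 28 narrow.

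Genes at wide peaks were long, with a median annotated length of 59428 bp, against 36655 bp for genes with narrow peaks alone and 17169 bp for all protein-coding genes. No gene lay wholly within its wide peak. Across chromosomes, genes with a wide peak were most frequent on chromosome 12, with 26 of 679 genes (3.83%). Chromosome 7 had 11 of 2030 (0.542%), and the X chromosome had 1 of 966, Efnb1. An end of a long noncoding RNA gene lay within 1 kb of 58 members (19.5%, 15.4 to 24.3%) and 129 narrow peaks (15.1%, 12.9 to 17.7%). Another Ctrl PHF2 peak lay within 1 kb of 64 members (21.5%) and of 151 narrow peaks (17.7%).

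The listed start windows, 250 bases before to 50 after the RefSeq start, were compared for 248 genes with a wide peak, 719 with narrow peaks alone and all 17492 with a window. GC content had medians of 65.3%, 66.0% and 56.3%, and the number of CpG pairs medians of 26, 26 and 13. A CpG island-like composition (observed to expected CpG of at least 0.6 and GC above 50%) was found in 77.4% (71.8 to 82.2%), 83.6% (80.7 to 86.1%) and 45.6%. Wide and narrow genes thus shared CpG-rich starts, and the share was not higher at the wide ones. Within the wide class it was 76.5% of 51 genes with a KO peak and 77.7% of 197 without.

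Fixed motifs were searched on both strands of these windows, and a match is a description, not a bound site. The GC box of Sp factors, GGGCGG, occurred in 73.0% of wide, 74.0% of narrow and 46.3% of all windows. The TATA box, TATAAA, occurred in 5.65%, 6.95% and 13.3%, and CCAAT in 41.9%, 36.9% and 39.2%. The FoxO element, GTAAACA, occurred in 3.23%, 2.50% and 2.93%. The E-box, CACGTG, occurred in 6.45% of wide (4.01 to 10.2%) and 10.3% of narrow windows (8.28 to 12.7%), against 7.91% of all. The motif of the factor NRF1 occurred in 6.45% (4.01 to 10.2%) and 11.1% (9.03 to 13.6%), against 6.66% of all. The AP-1 element, TGANTCA, occurred in 4.03%, 3.48% and 7.03%. For each of these motifs the intervals of wide and narrow windows overlapped, which does not show that the shares were equal. The differences were not tested. Trim63 was unlike most of its class, since its window holds the TATA box and the FoxO element shown above and few CpG pairs.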

How the data were processed

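PHF2 and IgG CUT&RUN libraries of Ctrl and KO gastrocnemius muscle were grouped by the sample labels, with 1 library per group. Per the submitters' processing notes, the authors used Bowtie2, MACS2 and the mm10 build. Not given in the sources used here were versions, settings, the control library and how duplicates were handled. The deposited peak lists, named by library, have the 10 columns of the narrowPeak layout. They give the authors' fold enrichment as a ratio over background, the authors' -log10 p and -log10 q, a deposited score, which was not used, and the summit as another value, an offset in bp. Starts were written 1-based.

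Tags at the summit were recovered from MACS2's fold, (pileup + 1) / (background + 1), and its Poisson p. All 309 pairs of values in Ctrl PHF2 and 84 in KO PHF2 gave whole tags within 0.005, with factors of 0.649 and 0.609. The largest factor that fitted was taken, since a smaller one that divides it fits too and would give higher counts. The tag counts and their Poisson intervals depend on this choice. Such divisors aside, the next factors gave 36.2% and 36.9%. In 5 Ctrl pairs more than 1 whole number was possible, and the closest was taken. On 400 peaks simulated with these same formulas 100% of tags were recovered. That checks the calculation alone, and cannot check the formulas assumed or the choice of the largest factor. The ratio of library sizes was taken from these factors and the caller's genome-wide background.

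Overlap meant at least 1 bp. Genes were matched to RefSeq (GRCm38.p6), with strand and start windows for 17492 of 21887 genes. Shares have Wilson, differences Newcombe and tags exact Poisson 95% intervals. No test was made. A share of 0 has the limit that 3 counts allow.

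The peaks, gene lists, named genes and alternatives were chosen with earlier results of these data known. The pattern for histone genes was corrected after the lists were written, so as to leave out H2 antigens. Named genes were those of the 15 widest members, the 12 of highest Ctrl and the 12 of highest KO fold enrichment, the 4 with the highest KO to Ctrl tag ratio, up to 6 per list by width, 3 on each side of the width limit, genes with more than 1 wide peak, and the 5 members each with summits nearest an edge and the centre. Some genes that this rule names are left out of the text. Further genes named in the text were chosen after their values were seen. The printed start windows, those of the widest members with their summit in the window and with the bases before the start outside every annotated protein-coding gene span, were also chosen after the values were seen, and so was the comparison of tags. Tools were statsmodels 0.14.6, matplotlib 3.10.9, pandas 2.3.3, SciPy 1.17.1 and NumPy 2.4.6 in Python 3.11.15.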

Additional observations from a re-analysis of the deposited data

How the results depend on the processing

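Other choices of width, window, threshold, overlap and gene models gave 64 values beside those reported. Only the differences between wide and narrow peaks have a direction, and all of these stayed positive. Of the 64 values, 49 were classed as close to those reported and 15 as moved. The close class includes peak counts of 240 and 365 beside 298. With a minimum width of 600 bp there were 463 peaks, a KO overlap of 14.9% and a difference from narrow peaks of 12.4 points. With 1000 bp these were 189 peaks, 27.5% and 24.0 points, and every member of known strand was at a start (100%), as with a window of 2 kb (100%). A reciprocal overlap of 50% left 4.36% and 3.19 points, and a KO peak within 100 bp of the summit 12.1% and 9.50 points. By any overlap the difference was 3.99 points at 8 to 13 tags (-1.02 to 24.2), 5.05 at 14 to 16 (-0.0530 to 15.3) and 24.0 at 21 or more (13.9 to 32.1). For the remaining settings the number of peaks was between 240 (-log10 q of at least 5) and 365 (peaks within 1 kb merged). The median summit distance from the centre was between 0.396 and 0.475 over its alternatives, and 31 to 34 gene lists held a wide member. Restriction to curated transcripts and to Ctrl peaks at least as strong by -log10 p as the weakest KO peak were added after seeing the data, and gave KO overlaps of 20.6% and 21.2%. No paired analysis was possible because there was 1 library for each genotype and antibody. The low tag counts per summit limit every comparison of single peaks between Ctrl and KO.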

Other observations

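Wide Ctrl PHF2 peaks away from annotated gene ends were often at starts inside genes. Of these 106 peaks, a total of 49 (46.2%, 37.0 to 55.7% by Wilson's 95% interval) had within 1 kb a listed RefSeq start in the body of a protein-coding gene, and 98 (92.5%) had their summit inside a gene. The widest lay at Hivep2 (3976 bp, 37 tags), a zinc finger factor, and at Zeb2 (3146 bp, 29 tags), a repressor of epithelial genes that also had a gene-end member of 881 bp. Tnrc18 (2952 bp, 35 tags), Pde4b (2903 bp, 29 tags), a cAMP phosphodiesterase, and Arid1a (2837 bp, 25 tags) followed. All 5 overlapped a KO PHF2 peak, beside 22 of all 106 (20.8%). These 5 are the widest, and among the gene-end members the share was higher at larger widths. The glycolytic genes Aldoa (1251 bp, 14 tags) and Ldha (1037 bp, 28 tags) were also among the 49, without a KO peak. 

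Members also lay near microRNA genes, with Mir378a at the Ppargc1b peak and Mir1903 at the Nrp1 peak. The Nrp1 peak was 2536 bp wide with 23 tags in Ctrl and 14 in KO.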
